A study of Mus musculus with 8 samples.

Results

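The growth factor receptors of the monocyte lineage were taken by name as 7 genes, Kit, Flt3, Csf1r, Csf3r, Csf2ra, Csf2rb and Csf2rb2, of which 6 were analysed among 13388 gene identifiers, and Flt3 was not analysed here. Bulk RNA-seq of wild-type mouse bone marrow cells covered 8 libraries, 4 of common monocyte progenitors (cMoPs), the dividing precursors of monocytes, and 4 of Ly6C+ classical monocytes. Each cell type was sorted and kept for 6 h on OP9-DLL1 or on OP9 cells. OP9 is a stromal line from the bone of mice that lack functional M-CSF, and OP9-DLL1 is OP9 that carries the Notch ligand DLL1 on its surface. This gave 4 groups of 2 libraries each: cMoPs on OP9-DLL1, cMoPs on OP9, monocytes on OP9-DLL1 and monocytes on OP9. All 4 groups were wild type and all had stroma contact, so no group shows freshly isolated cells. Gates for the sorts are not stated in the labels used here. Since cMoPs are commonly sorted as cells with Kit and Csf1r and without Flt3 at the surface, a difference in Kit or Csf1r between the cell types may follow the sort, which was not tested.

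These receptors tell myeloid cells to survive, divide and mature. Kit and Csf1r are receptor tyrosine kinases, for stem cell factor and for M-CSF and interleukin-34, and they add phosphate to themselves and to signalling proteins once a ligand pairs 2 chains. The G-CSF receptor, Csf3r, and the GM-CSF receptor lack a kinase of their own and work through bound JAK kinases and STAT factors. The GM-CSF receptor is built from a ligand-specific alpha chain, Csf2ra, and a beta chain, Csf2rb, that the interleukin-3 and interleukin-5 receptors share. Mice carry in addition Csf2rb2, a close copy of the beta chain that works with the interleukin-3 receptor. In bone marrow, Kit marks immature progenitors and is lost as cells mature, while Csf1r marks the monocyte and macrophage line.

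Csf2rb and Csf2rb2 lie side by side on chromosome 15 of GRCm38, at 78325752 to 78353847 on the plus strand and 78282507 to 78305721 on the minus strand, 20030 bases apart. Their coding sequences (2691 and 2637 bases in GENCODE M21) were 95.3% identical over 2629 aligned bases. The first 90 coding bases of each are shown because they carry 3 of the 123 differences, in capitals, and show how reads of the genes can be told apart.

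Csf2rb: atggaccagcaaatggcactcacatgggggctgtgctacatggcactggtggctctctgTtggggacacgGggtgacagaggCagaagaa
Csf2rb2: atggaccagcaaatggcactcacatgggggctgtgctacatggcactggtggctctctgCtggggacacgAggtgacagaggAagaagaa

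Of all coding windows of 150 bases, the length of each read of a pair, 6.49% in Csf2rb and 6.63% in Csf2rb2 were found letter for letter in the other gene's coding sequence. The longest identical run was 242 bases, so some reads could have come from either gene and values of this pair are uncertain. Untranslated bases and read pairs were not examined, so the share of such reads is not known. Such reads weigh more on Csf2rb2, which had 3.11 to 11.7 reads per 100 Csf2rb reads across the libraries. A small share of Csf2rb reads could thus be large beside the Csf2rb2 reads, which was not tested.

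Promoters, from 250 bases before to 50 bases after the start site, were taken from RefSeq (GRCm38.p6) for 5 of the 7 genes, and 3 are shown. Kit was the receptor higher in cMoPs, Csf2rb2 had the greatest shortfall of the receptors in cMoPs, and Csf3r was one of the receptors that rose on DLL1 stroma in monocytes. Capitals mark GAGGAA, or its reverse complement, the core bound by the myeloid factor PU.1.

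Kit, chr5:75574737-75575036, plus strand: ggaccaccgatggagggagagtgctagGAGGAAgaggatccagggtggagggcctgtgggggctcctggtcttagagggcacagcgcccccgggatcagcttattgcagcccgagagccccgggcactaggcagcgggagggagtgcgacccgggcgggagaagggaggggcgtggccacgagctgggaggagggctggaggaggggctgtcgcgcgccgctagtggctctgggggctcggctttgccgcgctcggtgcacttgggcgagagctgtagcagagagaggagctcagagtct
Csf2rb2, chr15:78305672-78305971, minus strand: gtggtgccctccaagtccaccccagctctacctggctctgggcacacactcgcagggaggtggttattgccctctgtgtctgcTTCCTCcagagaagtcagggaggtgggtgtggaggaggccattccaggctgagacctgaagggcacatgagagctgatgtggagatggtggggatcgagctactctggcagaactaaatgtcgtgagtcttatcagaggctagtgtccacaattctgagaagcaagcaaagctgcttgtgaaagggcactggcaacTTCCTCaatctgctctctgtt
Csf3r, chr4:126024409-126024708, plus strand: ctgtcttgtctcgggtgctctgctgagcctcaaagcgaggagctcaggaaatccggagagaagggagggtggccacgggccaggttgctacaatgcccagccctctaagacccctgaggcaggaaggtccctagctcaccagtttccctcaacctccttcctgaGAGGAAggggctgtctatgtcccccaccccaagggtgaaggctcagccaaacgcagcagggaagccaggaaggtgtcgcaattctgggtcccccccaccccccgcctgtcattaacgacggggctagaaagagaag

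The first base of the match lay at -223 in Kit, at -167 and 29 in Csf2rb2, and at -86 in Csf3r, counted from the start site. Csf2ra had adjoining matches at -14 and -8, and Flt3 had no match. GAGGAA on either strand occurred in 28.3% of 32851 promoters of this length. The RBPJ core TGGGAA, read on both strands, was found at -30 in Csf2ra and in 25.6% of all promoters. The RUNX core TGTGGT (16.8% of all promoters) and the C/EBP core TTGCNNAA (10.8%) were found in none of the 5, and RBPJ in none of the other 4. These matches describe letters, not binding, and Csf1r and Csf2rb are named only.

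Recovered depth was 47316323 to 62459962 reads per library, at which 1 read is worth 0.0151 to 0.0231 CPM, the unit of reads scaled to a common library size. The replicates of monocytes on OP9 were the least alike: 1452 genes differed over 2-fold between them, and 726 to 807 in each of the other groups. Myeloid progenitor markers (8 of 8 measured, including Mpo and Elane) summed to 15218 to 22527 CPM in cMoPs and 341 to 799 CPM in monocytes. Monocyte markers (8 of 8, including Ly6c2 and Ccr2) summed to 3738 to 4622 CPM in cMoPs and 6213 to 9042 CPM in monocytes. Stroma markers (7 of 13 measured, including Col1a1 and Cxcl12) summed to 1.53 to 4.63 CPM in cMoPs and 5.43 to 36.9 CPM in monocytes. Erythroid and megakaryocyte markers (3 of 9, Car1, Pf4 and Ppbp, the last at 0 reads in cMoPs) summed to 0.839 to 4.02 CPM in cMoPs and 13.6 to 195 CPM in monocytes. Car1 ran against Pf4 and Ppbp on OP9, at 1.33 ± 1.62 CPM in cMoPs and 0 reads in monocytes. Of 6 B and T cell markers Lck was measured, at 0.342 to 1.72 CPM in cMoPs and 0.0924 to 0.45 CPM in monocytes. Less RNA per cell and fewer cells with the RNA cannot be told apart in such bulk libraries.

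Kit was higher in cMoPs and the 5 other analysed receptors were lower in cMoPs, on either stroma. All 6 passed in both cell type comparisons, where passing means a Benjamini-Hochberg adjusted p under 0.05 by limma-trend. Of all 13374 genes tested, 57.4% passed on OP9-DLL1 and 56.5% on OP9. A pass was thus common between these cell types, and Kit entered the test through its cMoP libraries alone, so the counts say little about the receptors. Where libraries of the cell types are said below not to overlap, the share of all genes that separate so was not counted. Such separation is therefore not read as particular to the receptors. The median log2 fold change of the 6, cMoPs over monocytes, was -1.45 on OP9-DLL1 and -1.0 on OP9, beside -0.01 and 0.01 for all genes.

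**Figure D1:**
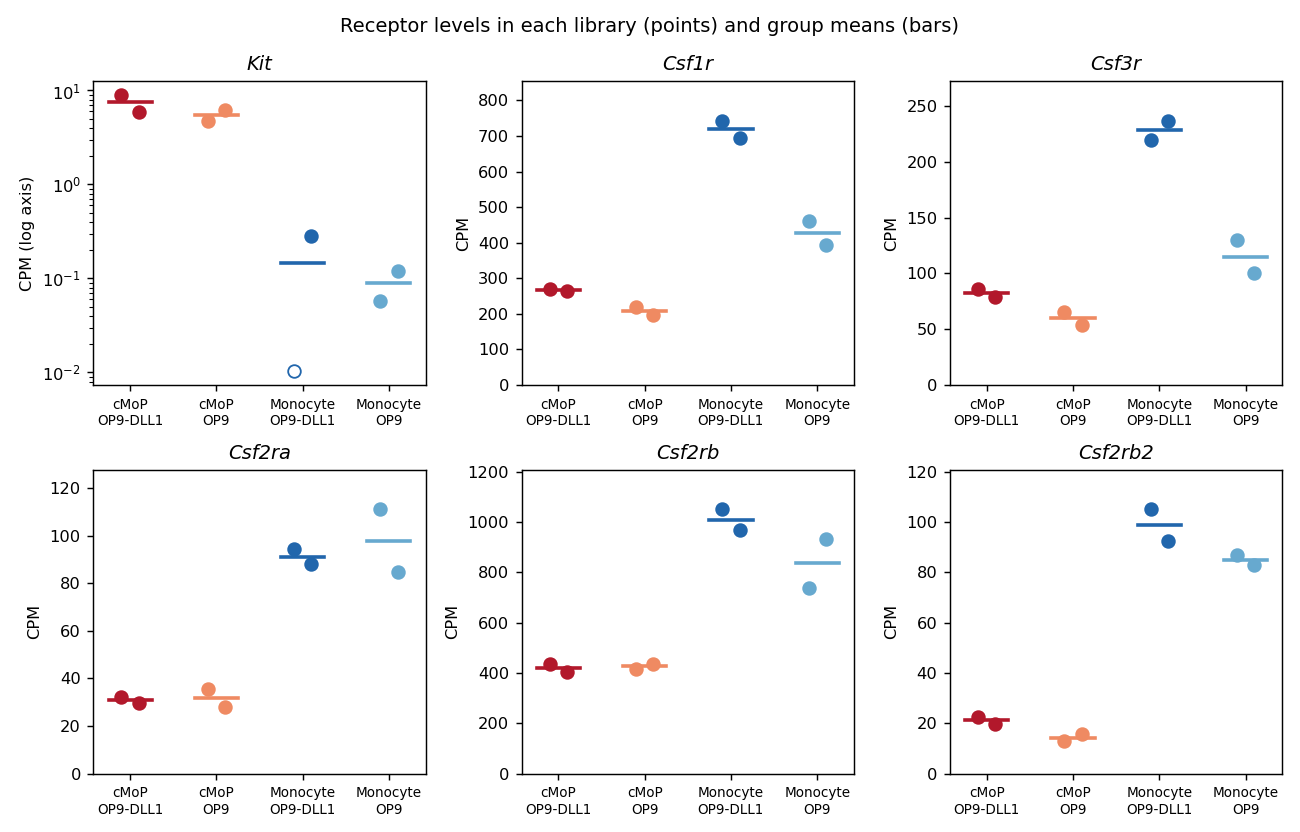
Receptor levels in CPM, with 1 point per library and a bar at each group mean, in cMoPs and monocytes on OP9-DLL1 or OP9. Kit is on a log axis, where the open point is a library with 0 reads, and stands higher in cMoPs. The other receptors stand lower in cMoPs.

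Kit, the receptor of stem cell factor (ENSMUSG00000005672, chromosome 5, 75574916 to 75656722, plus strand), had 8.98 and 5.91 CPM in cMoPs on OP9-DLL1, and 4.71 and 6.2 CPM in cMoPs on OP9. In monocytes it had 0.281 CPM in 1 OP9-DLL1 library and no read in the other, where 3 counts would be 0.0616 CPM, and 0.0577 and 0.121 CPM on OP9. Every cMoP library stood far above every monocyte library. In reads this was 861 against 14 on OP9-DLL1 and 650 against 8 on OP9. The ratios at equal depth were 53.1 on OP9-DLL1 (95% exact interval 31.4 to 97.4) and 65.2 on OP9 (32.9 to 152), intervals that cover counting error only. The fitted log2 fold change was 7.08 ± 1.26 on OP9-DLL1 (SE, limma-trend adjusted p = 0.0011) and 6.01 ± 1.26 on OP9 (adjusted p = 0.003). On OP9-DLL1 its size rested on the monocyte library without reads, with a log2 fold change of 4.69 without that library (replicate 1) and 9.47 without replicate 2. Mast cells also carry Kit. Markers of mast cells and basophils (4 of 9 measured, Gata2, Mcpt8, Prss34 and Hdc) summed to 44.8 to 64.2 CPM in cMoPs and 23.8 to 66.2 CPM in monocytes, and none was at 0 throughout a group. On each stroma 2 of the 4 were higher in cMoPs and 0 lower. Across all genes 28.2% were higher on OP9-DLL1 and 28.8% on OP9. Gata2 was higher by 4.24 ± 0.88 in log2 on OP9-DLL1 (adjusted p = 0.0028) and by 2.59 ± 0.88 on OP9 (adjusted p = 0.031, up to 0.21 with a library left out). Mcpt8 was higher by 3.06 ± 1.16 on OP9-DLL1 (adjusted p = 0.046, up to 0.36) and Hdc by 1.19 ± 0.20 on OP9 (adjusted p = 0.00083). The part of such cells in the Kit values was not tested.

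Csf1r, the M-CSF receptor (ENSMUSG00000024621, chromosome 18, 61100598 to 61132149, plus strand), had 271 and 264 CPM in cMoPs on OP9-DLL1, against 743 and 695 CPM in monocytes on OP9-DLL1. On OP9 it had 218 and 197 CPM in cMoPs, against 461 and 394 CPM in monocytes. The groups did not overlap on either stroma, and the lowest monocyte library stood above the highest cMoP library. The log2 fold change, cMoPs over monocytes, was -1.43 ± 0.12 on OP9-DLL1 (limma-trend adjusted p = 9.5e-06) and -1.04 ± 0.12 on OP9 (adjusted p = 7.5e-05).

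Csf3r, the G-CSF receptor and best known on neutrophils (ENSMUSG00000028859, chromosome 4, 126024550 to 126044440, plus strand), had 85.9 and 79.3 CPM in cMoPs on OP9-DLL1, against 220 and 237 CPM in monocytes on OP9-DLL1. On OP9 it had 65.9 and 53.6 CPM in cMoPs, against 130 and 100 CPM in monocytes. All monocyte libraries were above all cMoP libraries here too. The log2 fold change was -1.47 ± 0.16 on OP9-DLL1 (limma-trend adjusted p = 5.2e-05) and -0.94 ± 0.16 on OP9 (adjusted p = 0.00086). Neutrophil markers (12 of 13 measured) summed to 618 to 687 CPM in cMoPs and 1530 to 2464 CPM in monocytes, and none was at 0 throughout a group. Most of that gap was Mmp8, a granule collagenase, at 10.7 ± 5.69 CPM in cMoPs and 730 ± 278 CPM in monocytes with OP9-DLL1, and 14.6 ± 1.79 CPM in cMoPs and 1325 ± 275 CPM in monocytes with OP9. S100a8 was level, at 308 CPM in cMoPs and 307 CPM in monocytes with OP9-DLL1, and 303 CPM in cMoPs and 281 CPM in monocytes with OP9. By limma-trend, 2 of the 12 were higher in cMoPs (Cebpe and Cxcr2) and 3 lower on OP9-DLL1, and 0 higher and 5 lower on OP9. The shares of all genes were 28.2% higher and 29.2% lower on OP9-DLL1, and 28.8% higher and 27.7% lower on OP9. The part of neutrophils in the Csf3r difference was not tested.

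The 3 chains of the GM-CSF and interleukin-3 receptors were lower in cMoPs to unequal degrees. The alpha chain Csf2ra (ENSMUSG00000059326, chromosome 19, 61223957 to 61228429, minus strand) had 32.1 and 29.9 CPM in cMoPs on OP9-DLL1, against 94.2 and 87.9 CPM in monocytes on OP9-DLL1. On OP9 it had 35.7 and 28 CPM in cMoPs, against 111 and 84.6 CPM in monocytes. Its log2 fold changes, cMoPs over monocytes, lay close together at -1.56 ± 0.17 on OP9-DLL1 (limma-trend adjusted p = 5.9e-05) and -1.61 ± 0.17 on OP9 (adjusted p = 5.4e-05).

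The shared beta chain Csf2rb (ENSMUSG00000071713) had 437 and 405 CPM in cMoPs on OP9-DLL1, against 1050 and 968 CPM in monocytes on OP9-DLL1. On OP9 it had 417 and 435 CPM in cMoPs, against 739 and 933 CPM in monocytes. The cMoP libraries lay within a narrow band on both stromas, below every monocyte library. The log2 fold change was -1.26 ± 0.13 on OP9-DLL1 (limma-trend adjusted p = 3.7e-05) and -0.96 ± 0.13 on OP9 (adjusted p = 0.00022).

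Its copy Csf2rb2 (ENSMUSG00000071714) had 22.6 and 19.9 CPM in cMoPs on OP9-DLL1, against 105 and 92.5 CPM in monocytes on OP9-DLL1. On OP9 it had 13 and 15.7 CPM in cMoPs, against 86.7 and 82.8 CPM in monocytes. The gap between the cell types was wider than for the shared beta chain. The log2 fold change was -2.21 ± 0.15 on OP9-DLL1 (limma-trend adjusted p = 3.1e-06) and -2.57 ± 0.15 on OP9 (adjusted p = 1.9e-06). Il3ra, the interleukin-3 receptor alpha chain and the measured one of 2 listed partner chains, averaged 10.3 CPM in cMoPs and 9.44 CPM in monocytes with OP9-DLL1, and 10.7 CPM in cMoPs and 8.65 CPM in monocytes with OP9. It passed in no comparison by limma-trend or either voom fit, and no unadjusted p was under 0.05 (0 each).

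Ratios within a library compare the chains without library scaling. They were chosen after the data were seen, with the log2 fold changes of the chains already known. Their permutation p-values therefore only describe the separation of the libraries and give no support of their own. Csf2rb2 had 5.18, 4.92, 3.11 and 3.6 reads per 100 Csf2rb reads in the 4 cMoP libraries (OP9-DLL1, then OP9) and 9.99, 9.56, 11.7 and 8.88 in the 4 monocyte libraries. The means were 4.2 ± 1 in cMoPs and 10 ± 1.22 in monocytes (SD, n = 4 each), a log2 difference of -1.28 with no overlap. A two-sided exact permutation test gave p = 0.029, the smallest that 4 against 4 libraries allow, and 0.043 adjusted over the 3 ratios. Reads that match both genes could shift this ratio, and their part was not tested. Csf2ra had 7.34, 7.39, 8.56 and 6.44 reads per 100 Csf2rb reads in cMoPs and 8.97, 9.08, 15 and 9.07 in monocytes (log2 difference -0.47, exact permutation p = 0.029, adjusted 0.043). Replicate 1 of the monocytes on OP9 was the high one, and without it the log2 difference was -0.29. Csf3r had 27.2 to 31.7 reads per 100 Csf1r reads in cMoPs and 25.4 to 34.2 in monocytes. The cell types overlapped for this ratio, at 29.8 ± 1.86 in cMoPs and 29.3 ± 3.68 in monocytes (log2 difference 0.03, exact permutation p = 0.8). Each test pools both stromas, and leaving out any library leaves a smallest possible p of 0.057.

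**Figure D2:**
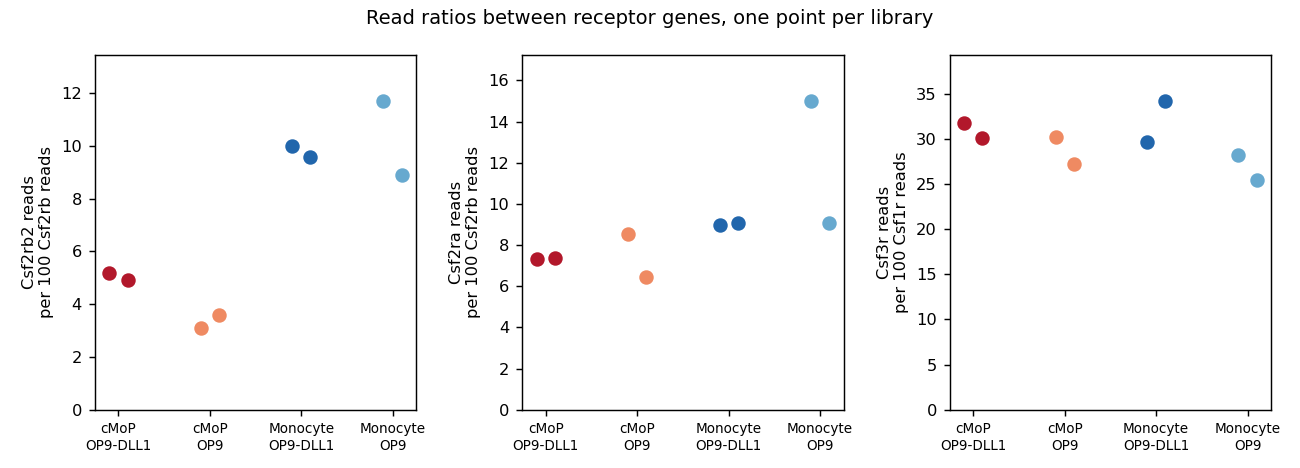
Reads of Csf2rb2 and Csf2ra per 100 reads of Csf2rb, and of Csf3r per 100 reads of Csf1r, with 1 point per library in the 4 groups. The Csf2rb2 ratio lies between 3.11 and 5.18 in cMoPs and between 8.88 and 11.7 in monocytes, while the Csf3r ratio overlaps between the cell types.

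Set per kilobase of annotated exon, the levels in cMoPs on OP9-DLL1 were 57.8 CPM per kb for Csf2rb, 46.3 for Csf1r, 22.9 for Csf3r, 10.8 for Csf2ra, 4.49 for Csf2rb2 and 0.836 for Kit. No neighbours in this order overlapped between the 2 libraries there. Cells of the same kind on OP9 kept the order, at 58.5, 35.9, 16.6, 11.1, 3.03 and 0.612 CPM per kb. In monocytes on OP9-DLL1 the order was again the same, at 139, 124, 63.4, 31.7, 20.8 and 0.0164 CPM per kb. In monocytes on OP9, Csf2rb (115 CPM per kb) and Csf1r (74.1) led, and Csf2ra (29.5 and 38.6) and Csf3r (27.7 and 36) overlapped. Csf2rb2 (17.9) and Kit (0.01) followed. The exon lengths include every annotated transcript, which for Csf2rb means retained introns, so its level per kb may be understated. Lengths of the other receptors were built in the same way, so the order per kb carries this limit for all of them.

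Contact with DLL1 was the study's other axis. In monocytes Csf1r and Csf3r rose on OP9-DLL1, and the 4 other analysed receptors did not pass. The 2 that passed stand beside 6.39% of all genes in that comparison. The median log2 fold change of the 6 was 0.25, beside 0.01 for all genes.

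Csf1r averaged 719 ± 33.8 CPM in monocytes on OP9-DLL1 and 428 ± 46.9 CPM in monocytes on OP9 (SD, n = 2 each). The libraries listed above did not overlap, and the log2 fold change was 0.75 ± 0.12 (limma-trend adjusted p = 0.0073). The authors' deposited table gives an adjusted p of 0.0053 for it. The call depended on both OP9-DLL1 libraries, with an adjusted p of 0.065 without replicate 1 and 0.056 without replicate 2, at log2 fold changes of 0.70 and 0.80. Csf3r averaged 229 ± 12.3 CPM in monocytes on OP9-DLL1 and 115 ± 21.1 CPM in monocytes on OP9 (log2 fold change 1.0 ± 0.16, adjusted p = 0.0078). The adjusted p was 0.0054 in the authors' deposited table, and 0.079 here without OP9-DLL1 replicate 2, at a log2 fold change of 0.95. Of the 12 neutrophil markers, Padi4 alone passed in monocytes, and it fell by 0.63 in log2 on OP9-DLL1 (adjusted p = 0.048, up to 0.2 with a library left out). Their summed level was 1552 and 1530 CPM on OP9-DLL1 and 1961 and 2464 CPM on OP9, a gap mainly of Mmp8, which did not pass (adjusted p = 0.18). Summed dendritic cell markers (3 of 7 measured, Xcr1, Batf3 and Cd209a), from cells that can carry Csf1r, were 8.71 and 32.9 CPM on OP9-DLL1 and 5.67 and 16.7 CPM on OP9 in monocytes, most of it Cd209a, which did not pass (adjusted p = 0.86). Batf3 rose with Csf1r, at 3.96 ± 0.506 CPM on OP9-DLL1 and 0.497 ± 0.163 CPM on OP9 in monocytes (log2 fold change 3.03 ± 0.66, adjusted p = 0.029, up to 0.05 with a library left out). Erythroid and megakaryocyte markers were 22.2 and 13.6 CPM on OP9-DLL1 and 113 and 195 CPM on OP9 in monocytes. Pf4 (log2 fold change -3.10 ± 0.46, limma-trend adjusted p = 0.0061) and Ppbp (-3.17 ± 0.73, adjusted p = 0.037) fell, as did 3.03% of all genes. Car1 did not pass. Summed stroma markers were 5.43 and 21.6 CPM on OP9-DLL1 and 36.9 and 33 CPM on OP9. Of the 7 stroma markers Pdgfrb alone passed, and it rose, as did 3.36% of all genes. It averaged 3.57 ± 0.945 CPM on OP9-DLL1 and 0.124 ± 0.127 CPM on OP9 (log2 fold change 5.35 ± 0.93, limma-trend adjusted p = 0.012). The part of these cells in the calls was not tested.

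The GM-CSF receptor chains gave no call in monocytes. Csf2rb averaged 1009 ± 57.8 CPM in monocytes on OP9-DLL1 and 836 ± 137 CPM in monocytes on OP9 (log2 fold change 0.28 ± 0.13, limma-trend adjusted p = 0.24). Both OP9-DLL1 libraries were above both OP9 libraries, and it passed without OP9 replicate 2, at a log2 fold change of 0.45 and an adjusted p of 0.0097. Csf2ra averaged 91.1 ± 4.47 CPM in monocytes on OP9-DLL1 and 97.7 ± 18.5 CPM in monocytes on OP9, with overlapping libraries (-0.09 ± 0.17, adjusted p = 0.81). Csf2rb2 averaged 98.7 ± 8.73 CPM in monocytes on OP9-DLL1 and 84.8 ± 2.74 CPM in monocytes on OP9 without overlap (0.22 ± 0.15, adjusted p = 0.45). Such separation of 2 libraries from 2, for Csf2rb and Csf2rb2 alike, is common without any difference. Kit was near the limit of detection on both stromas, and its value (-0.64 ± 1.26, adjusted p = 0.82) rested on 14 and 8 reads.

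**Figure D3:**
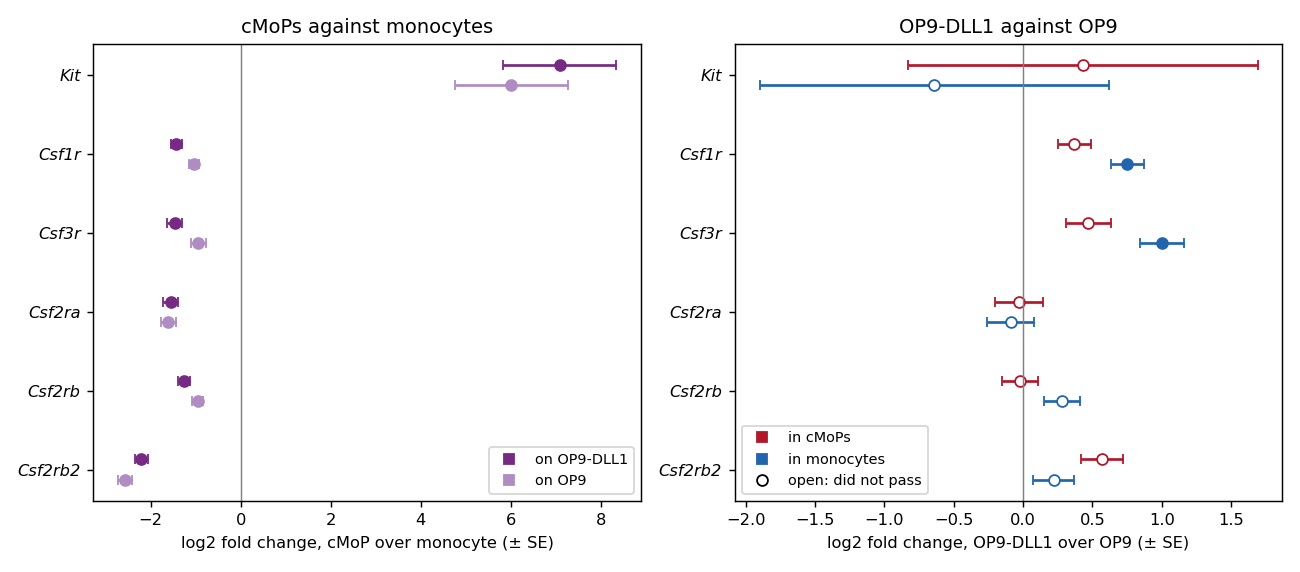
Log2 fold changes ± SE of the 6 analysed receptors, cMoPs over monocytes at left and OP9-DLL1 over OP9 at right. Filled points passed at an adjusted p under 0.05 by limma-trend and open points did not. Only Csf1r (0.75) and Csf3r (1.0) in monocytes are filled at right.

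In cMoPs no receptor passed on OP9-DLL1 against OP9 (0 of 6 by limma-trend, by voom and by weighted voom, and 3 with an unadjusted p under 0.05), where 0.77% of all genes passed. Csf1r averaged 267 ± 5.36 CPM in cMoPs on OP9-DLL1 and 207 ± 15.2 CPM in cMoPs on OP9, without overlap (log2 fold change 0.37 ± 0.12, limma-trend adjusted p = 0.29). It passed when monocytes on OP9 replicate 1 or replicate 2 was left out (adjusted p = 0.049 each), with the same log2 fold change of 0.37, since those libraries enter only the spread. Csf3r averaged 82.6 ± 4.69 CPM on OP9-DLL1 and 59.7 ± 8.7 CPM on OP9, also without overlap (0.47 ± 0.16, adjusted p = 0.33). Csf2rb2 averaged 21.3 ± 1.9 CPM on OP9-DLL1 and 14.3 ± 1.91 CPM on OP9, again without overlap (0.57 ± 0.15, adjusted p = 0.17). With 2 libraries per group a lack of overlap is common without any difference, so no response is read from it. Csf2ra, at 31 ± 1.52 CPM on OP9-DLL1 and 31.9 ± 5.42 CPM on OP9, overlapped between stromas (-0.03 ± 0.17, adjusted p = 0.98). So did Csf2rb, at 421 ± 22.6 CPM on OP9-DLL1 and 426 ± 12.8 CPM on OP9 (-0.02 ± 0.13, adjusted p = 0.99). Kit averaged 7.45 ± 2.17 CPM on OP9-DLL1 and 5.45 ± 1.05 CPM on OP9, with overlapping libraries (0.43 ± 1.26, adjusted p = 0.96). The authors' deposited table has Csf1r at an adjusted p of 0.085, Csf2rb2 at 0.098 and Csf3r at 0.11 in this comparison.

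The responses of the cell types to DLL1 were compared directly, as the log2 response of cMoPs minus that of monocytes. No receptor passed (0 of 6 by limma-trend, by voom and by weighted voom, and 2 with an unadjusted p under 0.05), where 0.0523% of all genes passed. The difference was -0.38 ± 0.16 for Csf1r (adjusted p = 0.49), -0.53 ± 0.22 for Csf3r (0.48) and -0.30 ± 0.18 for Csf2rb (0.63). It was 0.35 ± 0.21 for Csf2rb2 (0.63), 0.06 ± 0.24 for Csf2ra (0.96) and 1.07 ± 1.78 for Kit (0.88). The calls for Csf1r and Csf3r in monocytes, without one in cMoPs, are therefore not shown to be a difference between the cell types. Csf2rb passed here without replicate 2 of the monocytes on OP9, with a difference of -0.47 and an adjusted p of 0.041.

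Genes most like each receptor were taken as the 3 with the smallest root mean square difference in centred log2 CPM over the 8 libraries, among 8998 genes with a mean of at least 5 CPM in a group. With 4 groups of 2 libraries this mostly measures how alike the 4 group levels run. Csf1r ran closest to Il17ra, an interleukin-17 receptor chain (0.07), Cyp4f17 (0.08) and Klf13, a Kruppel-like factor (0.10), and Csf3r, at 0.12, was the receptor nearest to it. Il17ra averaged 26.6 CPM in cMoPs and 64.2 CPM in monocytes with OP9-DLL1, and 19.7 CPM in cMoPs and 39.6 CPM in monocytes with OP9. Csf3r ran closest to Rasa3, a Ras GTPase activating protein (0.12), Coro1b, an actin-binding coronin (0.13), and Mettl9 (0.13), and its distance to Csf1r was 0.12. Csf2rb ran closest to the histone gene H3f3a and the transcription factor gene Cux1 (0.07 each) and to Trim34a (0.08), and Csf2ra to Ndel1 (0.07), Armc7 and Hcfc1r1 (0.10 each).

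Csf2rb2 ran closest to Ahr, the aryl hydrocarbon receptor (0.17), H1f0, a linker histone (0.17), and Slc9a9, a sodium and proton exchanger (0.18). Its nearest receptor was Csf2ra at 0.50. Ahr averaged 3.88 CPM in cMoPs and 17 CPM in monocytes with OP9-DLL1, and 2.45 CPM in cMoPs and 16.5 CPM in monocytes with OP9. Kit had looser neighbours in Fkbp11 (0.62), Serpine2 (0.79) and Enpp4 (0.90), genes low in monocytes, and its nearest receptor was Csf2rb at 4.04. Fkbp11, of the FK506-binding protein family, averaged 81.6 CPM in cMoPs and 0.693 CPM in monocytes with OP9-DLL1, and 84.1 CPM in cMoPs and 1.47 CPM in monocytes with OP9.

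Of 8 listed ligand genes 2 were tested. On OP9, Csf1, which encodes M-CSF, averaged 2.06 ± 0.427 CPM in cMoPs and 0.833 ± 0.112 CPM in monocytes, a rise of 1.30 ± 0.46 in log2 (limma-trend adjusted p = 0.036, and up to 0.18 with a library left out). Flt3l, the ligand of Flt3, averaged 1.17 ± 0.00863 CPM in cMoPs and 3.55 ± 0.774 CPM in monocytes on OP9 (-1.59 ± 0.33, adjusted p = 0.0028). With weighted voom the call of Csf1 on OP9 was lost. Neither ligand passed on OP9-DLL1 or in a DLL1 comparison (0 also with voom, with weighted voom and by unadjusted p under 0.05).

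Of 28 listed genes that carry the receptors' signal inward, 27 were tested. On OP9-DLL1, 22 were lower in cMoPs, none higher and 5 did not pass (median log2 fold change -0.95, beside -0.01 for all genes). On OP9, 21 were lower, none higher and 6 did not pass (median -0.87, beside 0.01). Of all genes, 29.2% were lower on OP9-DLL1 and 27.7% on OP9. The Src family kinase Fgr averaged 54.7 ± 20.9 CPM in cMoPs and 691 ± 24.4 CPM in monocytes with OP9-DLL1, and 41.4 ± 7.21 CPM in cMoPs and 504 ± 101 CPM in monocytes with OP9. Its log2 fold change was -3.71 ± 0.25 on OP9-DLL1 (limma-trend adjusted p = 2.9e-06) and -3.60 ± 0.25 on OP9 (adjusted p = 4.9e-06). The related kinase Lyn had log2 fold changes of -1.57 ± 0.10 on OP9-DLL1 and -1.26 ± 0.10 on OP9, and the kinase Syk of -1.75 ± 0.15 on OP9-DLL1 and -1.55 ± 0.15 on OP9. Tyrobp, an adaptor that Syk binds, had log2 fold changes of -1.68 ± 0.18 on OP9-DLL1 and -1.93 ± 0.18 on OP9. Jak2, the kinase bound to the shared beta chain, stood at -0.91 ± 0.19 on OP9-DLL1 and -1.03 ± 0.19 on OP9, and is named outside the rule for list members.

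The genes that hold back or shed receptors ran the same way, with 17 of 17 tested. On OP9-DLL1, 13 were lower in cMoPs, 2 higher (Spry2 and Spred2) and 2 did not pass (median log2 fold change -0.92). On OP9, 13 were lower, 1 higher (Spry2) and 3 did not pass (median -0.87). Among all genes, 29.2% were lower and 28.2% higher on OP9-DLL1 (median -0.01), and 27.7% lower and 28.8% higher on OP9 (median 0.01). Socs3, an inhibitor of cytokine receptor signalling including that of Csf3r, averaged 10.6 ± 4.29 CPM in cMoPs and 80.2 ± 15.4 CPM in monocytes with OP9-DLL1, and 11 ± 0.191 CPM in cMoPs and 65.7 ± 17.3 CPM in monocytes with OP9. Its log2 fold change was -2.97 ± 0.28 on OP9-DLL1 (limma-trend adjusted p = 2.5e-05) and -2.56 ± 0.28 on OP9 (adjusted p = 7.4e-05). The lipid phosphatase Inpp5d had log2 fold changes of -1.24 ± 0.12 on OP9-DLL1 and -1.22 ± 0.12 on OP9, and the tyrosine phosphatase Ptpn6 of -1.06 ± 0.12 on OP9-DLL1 and -0.98 ± 0.12 on OP9. Adam17, a protease that sheds Csf1r, stood at -1.29 ± 0.14 on OP9-DLL1 and -0.87 ± 0.14 on OP9. Dok2, an adaptor that dampens kinase signalling, stood at -0.78 ± 0.17 on OP9-DLL1 and -1.71 ± 0.17 on OP9. Spry2, an inhibitor of receptor tyrosine kinase signalling, was higher by 1.33 ± 0.41 on OP9-DLL1 (adjusted p = 0.02) and by 1.44 ± 0.41 on OP9 (adjusted p = 0.014). With a library left out, the adjusted p of Spry2 reached 0.13 on OP9-DLL1 and 0.076 on OP9, and that of Spred2 reached 0.14 on OP9-DLL1, so each of these calls was lost.

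Transcription factors known to act on these receptor genes moved in both directions, with 17 of 17 tested. On OP9-DLL1, 9 were higher in cMoPs, 6 lower and 2 did not pass (median log2 fold change 0.68). On OP9, 8 were higher, 6 lower and 3 did not pass (median 0.38). Of all genes, 28.2% were higher and 29.2% lower on OP9-DLL1 (median -0.01), and 28.8% higher and 27.7% lower on OP9 (median 0.01). Myb, a factor of immature blood cells, averaged 17.6 ± 3.33 CPM in cMoPs and 0.638 ± 0.0453 CPM in monocytes with OP9-DLL1, and 22.1 ± 1.62 CPM in cMoPs and 0.528 ± 0.24 CPM in monocytes with OP9. Its log2 fold change was 4.78 ± 0.34 on OP9-DLL1 (limma-trend adjusted p = 4.6e-06) and 5.46 ± 0.34 on OP9 (adjusted p = 3e-06). Spi1, which encodes PU.1, averaged 36.3 ± 2.89 CPM in cMoPs and 108 ± 6.53 CPM in monocytes with OP9-DLL1, and 31.8 ± 2.04 CPM in cMoPs and 76.2 ± 7 CPM in monocytes with OP9. Its log2 fold change was -1.58 ± 0.13 on OP9-DLL1 (limma-trend adjusted p = 1.2e-05) and -1.26 ± 0.13 on OP9 (adjusted p = 5.8e-05). Mitf, a factor known in mast cells and osteoclasts, had log2 fold changes of -2.89 ± 0.26 on OP9-DLL1 and -2.49 ± 0.26 on OP9. Runx1, a factor of blood cell formation, stood at -1.87 ± 0.15 on OP9-DLL1 and -0.86 ± 0.15 on OP9. Rbpj, the DNA-binding partner of Notch, stood at -0.65 ± 0.17 on OP9-DLL1 (adjusted p = 0.0084, up to 0.074 with a library left out) and -1.52 ± 0.17 on OP9 (adjusted p = 7e-05).

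**Figure D4:**
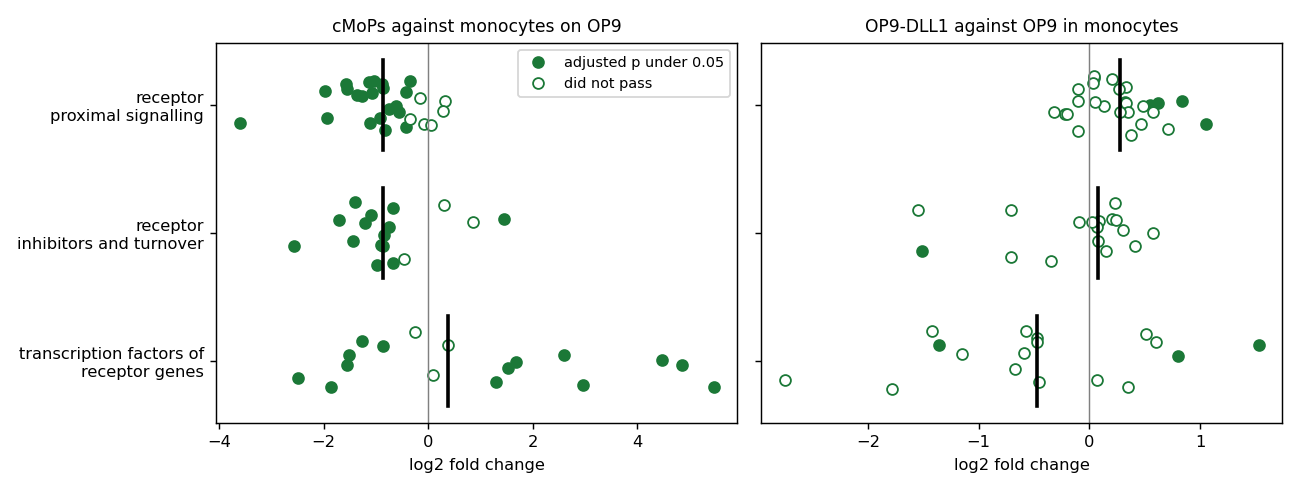
Log2 fold changes of the listed signalling genes, inhibitors and transcription factors, 1 point per gene, for cMoPs over monocytes on OP9 (left) and OP9-DLL1 over OP9 in monocytes (right). Filled points passed, open points did not, and black bars are list medians. The signalling and inhibitor lists lie left of 0 between the cell types (medians -0.87 each), and few genes are filled in the DLL1 comparison.

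On DLL1 stroma, 4 of the 27 signalling genes rose in monocytes and none fell (median log2 fold change 0.28, beside 0.01 for all genes, of which 3.36% rose). They included Lyn, Jak1 and Tyk2, kinases that act at the receptors. Lyn averaged 423 ± 5 CPM in monocytes on OP9-DLL1 and 276 ± 16.2 CPM in monocytes on OP9 (0.62 ± 0.10, limma-trend adjusted p = 0.01). Jak1 was higher by 0.84 ± 0.16 (adjusted p = 0.018) and Tyk2 by 0.55 ± 0.14 (adjusted p = 0.049). Each of these 3 lost its call with 1 library left out, at adjusted p values up to 0.085 for Lyn, 0.15 for Jak1 and 0.31 for Tyk2.

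Of the inhibitors, Dok2 alone passed in monocytes, and it fell, as did 3.03% of all genes. It averaged 250 ± 17.1 CPM in monocytes on OP9-DLL1 and 725 ± 200 CPM in monocytes on OP9 (-1.51 ± 0.17, limma-trend adjusted p = 0.0019, at most 0.022 with a library left out). The 16 others did not pass, and the list median was 0.08. Of the 17 transcription factors, Irf8 and Runx1 rose in monocytes on OP9-DLL1 and Rbpj fell (list median -0.47, beside 0.01 for all genes). Among all genes, 3.36% rose and 3.03% fell. Irf8, a factor of the monocyte and dendritic cell lines, averaged 197 ± 51.9 CPM on OP9-DLL1 and 67.6 ± 11.3 CPM on OP9 (1.53 ± 0.22, adjusted p = 0.0055, up to 0.054 with a library left out). Runx1 averaged 76.9 ± 1.74 CPM on OP9-DLL1 and 44.3 ± 5.86 CPM on OP9 (0.80 ± 0.15, adjusted p = 0.015, up to 0.12). Rbpj averaged 27.2 ± 4.01 CPM on OP9-DLL1 and 69.5 ± 3.93 CPM on OP9 (-1.36 ± 0.17, adjusted p = 0.0027, up to 0.037).

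In cMoPs no gene of these 3 lists passed on OP9-DLL1 against OP9 by limma-trend, and none by voom. At an unadjusted p under 0.05 there were 4 signalling genes higher, 1 inhibitor higher and 3 lower, and 3 transcription factors lower. Voom with sample quality weights called 1 signalling gene higher and 1 inhibitor lower. No list gene passed in the difference of the responses, again by limma-trend and both voom fits, with 2, 3 and 4 genes of the signalling, inhibitor and transcription factor lists at an unadjusted p under 0.05.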

How the data were processed

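RNA was measured in 8 libraries, grouped by the labels' titles. Per the labels' protocols, SMARTer Ultra Low cDNA, which does not mark strand, was sequenced as read pairs of 150 bases. Per the submitters' processing notes, the build was mm10 and the tools included STAR 2.7.9a, featureCounts 2.0.3 (Subread), Salmon 1.5.2, limma, edgeR and bcl2fastq. Values deposited by the authors are log2 CPM with 0.5 reads added per count, normalized by them, beside which stand the authors' log2 fold changes, p-values and a signed fold score (the score was not used). The table has 13430 entries, of which 42 repeat an identifier and were dropped. Whole reads were recovered for 100.0% of values (tolerance 0.01) and served for depth, ratios and intervals, not for the main test. Effective library sizes were 0.915 to 1.06 times the recovered reads.

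Tests used limma-trend (limma 3.58.1, R 4.3.3) on the log2 values as deposited. All 8 libraries entered 1 fit with a mean for each group and 4 residual degrees of freedom. Genes had to reach 1 CPM in 2 libraries, which kept 13374. Tests were two-sided, with Benjamini-Hochberg adjustment over all genes and a threshold of 0.05. The 5 comparisons share groups, so those with a common group are not independent. The labels do not say that replicates came from separate animals or cultures, and the p-values therefore reflect only the spread among these samples, possibly technical. No pair of replicates matched within counting noise (chi-square over its degrees of freedom, 24.0 to 157.2). Exact permutation tests used SciPy 1.17.1, and coding sequences were aligned with Biopython 1.88. Positions are from GENCODE M21 (GRCm38, which mm10 denotes).

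The members, gene lists and tests were chosen with earlier results of these data known. Named are all members, of each list up to 4 members with the lowest adjusted p among those that passed, and the 3 genes most like each member. A list gene that this rule would name is not reported here. Genes named beyond these, after their values were seen, are Jak2, marker genes and the genes behind counts of 5 or fewer. Alternatives were no filter, no trend, voom, weighted voom, median centring, 2 reads added, the compared groups alone, a replicate block and each library left out. The script was tested on simulated data.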

Additional observations from a re-analysis of the deposited data

How the results depend on the processing

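Between the cell types, all 6 receptors kept their direction and call in all 96 refits of a receptor on each stroma. For DLL1 in monocytes, 855 genes and 2 receptors passed, against 248 and 0 without the variance trend (Csf1r 0.067 and Csf3r 0.065 in adjusted p), 306 and 1 with the compared groups alone, 536 genes with weighted voom, and 162 to 2482 genes and 0 to 3 receptors with a library left out. Fewest passed without replicate 2 of the OP9-DLL1 monocytes and most without that of the OP9 monocytes. Without a cMoP library or OP9-DLL1 replicate 1, 278 to 550 genes passed. With libraries centred on their medians, 39.8% of 906 calls were higher there, against 52.6% of 855, and the median of all genes moved to 0.10 for cMoPs against monocytes on OP9-DLL1.

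For DLL1 in cMoPs, 103 genes and 0 receptors passed, against 37 without the trend, 64 with voom, 268 with weighted voom, 341 and 1 (Csf1r, adjusted p = 0.048) with the compared groups alone, and 31 to 307 genes and 0 to 1 receptors with a library left out. For the difference of the responses, 7 genes and 0 receptors passed, against 1 gene without the trend, and 0 to 1123 genes and 0 to 1 receptors with a library left out (29 without OP9 monocyte replicate 1 and 1123 without replicate 2, otherwise 0).

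Samples with the same replicate number deviated together only weakly (correlations of 0.02 to 0.09). With 2 libraries per group this cannot decide whether they shared animals or a batch, which the labels used here do not state. A replicate block gave 156 genes for DLL1 in cMoPs and 11 for the difference, with no change of call for a receptor.

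Signs turned where values were near 0 or rested on few reads. With a library left out, the DLL1 response in monocytes ran between -3.02 and 1.75 for Kit (positive without OP9-DLL1 replicate 1) and between -0.28 and 0.11 for Csf2ra (positive without OP9 replicate 1). In cMoPs it ran between -0.20 and 0.14 for Csf2ra (positive without OP9-DLL1 replicate 2 or OP9 replicate 1) and between -0.07 and 0.04 for Csf2rb (positive without replicate 2 of either stroma). The difference ran between -1.32 (without monocyte OP9-DLL1 replicate 1) and 3.46 for Kit, and between -0.14 and 0.25 for Csf2ra (negative without cMoP OP9 replicate 2 or monocyte OP9 replicate 1). For the log2 ratio of Csf3r to Csf1r reads, the difference of cMoPs minus monocytes was -0.00 without cMoP OP9-DLL1 replicate 1. It was -0.04 without monocyte OP9 replicate 2. Where leaving out a library leaves 1 in a group, that library is assumed to vary like the other groups. Beyond the settings named, the cause of these changes was not tested. With 2 libraries per group, responses such as those of Csf1r, Csf3r and Csf2rb2 in cMoPs (unadjusted p of 0.011, 0.014 and 0.0037) did not pass once adjusted over all genes, and Kit in monocytes is limited by its 0 to 14 reads per library.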
